A study of Arabidopsis thaliana with 12 samples.

Results

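The chloroplast keeps a small genome of its own, and its transcripts are described here across wild-type Arabidopsis thaliana plants and mutants of 2 nuclear genes, DJC31 and DJC62, which encode co-chaperones with a J domain and tetratricopeptide repeats. Every locus whose identifier starts with ATCG was taken, which gave 133 loci of the 36917 in the table: 88 protein-coding, 37 tRNA and 8 rRNA loci. They were sorted by name into photosystem I (psa), photosystem II (psb), cytochrome b6f (pet), ATP synthase (atp), NADH dehydrogenase-like complex (ndh), RNA polymerase (rpo), ribosomal proteins (rpl/rps), tRNA, rRNA and other loci.

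RNA had been sequenced from plants of 4 genotypes, with 3 libraries each. They were djc31 (insertion line SALK_034886), djc62 (insertion line SALK_050913), the double mutant djc31 djc62, and wild type, which the sample titles name as Col-0. All plants grew on soil under the same long days to the stage with 4 leaves, and the labels give the tissue only as plant. Each gene is represented by 1 insertion line. The labels name no insertion lines for the double mutant and do not say whether replicates were separate plants or sowings, so p-values measure only the spread between these libraries, which may be technical.

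Plastid genes are read by 2 kinds of RNA polymerase. A bacterial-type enzyme has a core encoded by the plastid rpo genes and takes its promoter specificity from nucleus-encoded sigma factors, while a phage-type enzyme is encoded wholly in the nucleus. Many plastid genes are transcribed together into long RNAs, which nucleus-encoded RNA-binding proteins then cut, edit and protect from decay, so that the level of each transcript depends on processing as well as on synthesis. The proteins serve photosynthesis and the plastid's own gene expression.

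Libraries held 13.6 to 31.08 M reads assigned to loci, of which 3840 to 14607 fell on plastid loci. DJC31 averaged 115 ± 30.8 normalised reads in djc31, 879 ± 63.9 in djc62, 47.5 ± 7.79 in djc31 djc62 and 727 ± 49.3 in wild type (SD, n = 3), and DJC62 averaged 413 ± 93.5, 161 ± 49.95, 75.7 ± 17.6 and 516 ± 76.1 in the same genotypes. The deposited values, called normalised read counts here, are whole reads divided by 1 factor per library. Library djc31 replicate 2 was the shallowest and stood apart: its summed nuclear rRNA value was 47361, against 17659 to 31506 in the other 11 libraries, and 3 plastid loci with reads in every other library (ORF31, PSBL and RPS18) had none in it. The labels name no step that enriches or removes a class of RNA. Of 5 leaf markers, 4 were abundant in every library, and LHCB1.5 had no reads in any. Their summed level was 1208500 to 1633100 in djc31, 934680 to 1198400 in djc62, 779270 to 847310 in djc31 djc62 and 1160600 to 1485100 in wild type. The 17 root markers summed to 2464 to 3270 in djc31, 3465 to 3779 in djc62, 5233 to 5859 in djc31 djc62 and 2613 to 2802 in wild type, with 5, 6, 5 and 5 of them without reads in those genotypes, and PLT1, EXPA18 and SULTR1.1 at 0 in all. The part of these differences in the plastid results was not tested.

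Summed over all 133 loci, plastid transcripts were lower in djc62 and in djc31 djc62 than in wild type. The sums of normalised read counts were 12464, 8250 and 9780.0 in djc31, 5368, 8175 and 5395 in djc62, 6305, 6977 and 6774 in djc31 djc62, and 10447, 11735 and 10957 in wild type. Every djc62 and every djc31 djc62 library lay below all 3 wild-type libraries, while djc31 overlapped with wild type. The mean sum was 10164 ± 2133 in djc31, 6313 ± 1613 in djc62, 6686 ± 345 in djc31 djc62 and 11046 ± 648 in wild type (SD, n = 3), which is 0.920, 0.571 and 0.605 of the wild-type mean in the 3 mutants. An exact permutation test of 3 against 3 libraries cannot give a p below 0.1, so none is reported for the sum. Plastid loci took 0.0356% ± 0.0066 of all reads in djc31, 0.0256% ± 0.0069 in djc62, 0.0310% ± 0.0014 in djc31 djc62 and 0.0426% ± 0.0039 in wild type. By this share djc31 djc62 lay nearer to wild type than by the sums, and djc31 lay further from it. The size of each difference therefore depends on the library factors. The exact Clopper-Pearson 95% intervals of the single libraries, the widest being 0.0274% to 0.0291% in djc31 replicate 2, cover counting error only. In RNA labelled only as plant, fewer chloroplasts or green cells and less plastid RNA in each cannot be told apart. How fully each library captured plastid RNA is not known either, since the labels name no step that enriches or removes a class of RNA. In wild type the leaf markers summed to 1160600 to 1485100 normalised reads, against 10447 to 11735 for all plastid loci. The values describe the plastid RNA that was sequenced, which may be a small part of what the plants held.

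**Figure D1:**
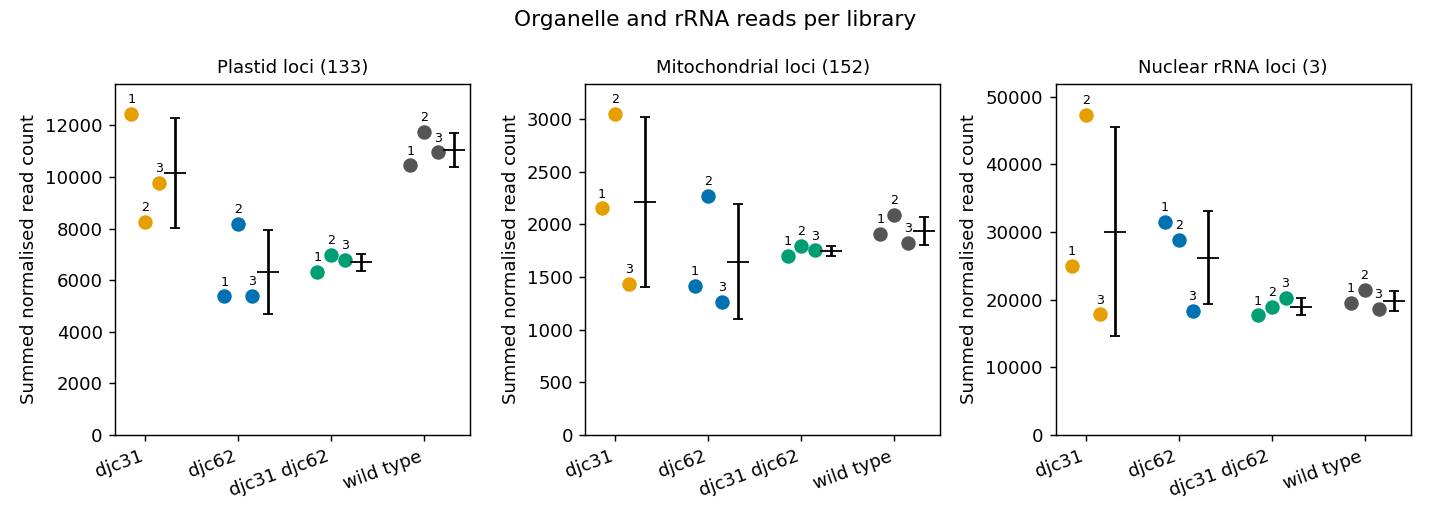
Summed normalised read counts per library (y axis, linear from 0) at plastid loci, mitochondrial loci and nuclear rRNA loci, by genotype (x axis). Points are libraries numbered by replicate, and bars give the mean ± SD (n = 3). The djc62 and djc31 djc62 plastid sums of 5368 to 8175 lie below the wild-type sums of 10447 to 11735, mitochondrial sums overlap between wild type and both single mutants but not between djc31 djc62 (1700.0 to 1797) and wild type (1828 to 2090), and djc31 replicate 2 has the highest nuclear rRNA sum, 47361.

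Mitochondrial loci, the other organelle genome, gave sums of 2153, 3053 and 1434 in djc31, 1412, 2271 and 1260 in djc62, 1700.0, 1797 and 1754 in djc31 djc62, and 1908, 2090 and 1828 in wild type. The djc31 djc62 libraries were also below every wild-type library here. The mean was 0.901 of wild type, against 0.605 for the plastid loci. These ratios compare unlike mixtures of RNA, because most of the mitochondrial sum was rRNA. Mitochondrial rRNA summed to 1150, 1884 and 961 in djc62, 1425, 1510 and 1471 in djc31 djc62, and 1484, 1670 and 1401 in wild type. Plastid rRNA in wild type was only 181, 298 and 242. Mitochondrial sums without rRNA were not compared. In djc62 the mitochondrial mean was 0.848 of wild type and its libraries overlapped with wild type. Of 152 mitochondrial loci only 17 passed the filter described next. Of these, none was lower in djc31 or djc62 and 1 (5.88%) was lower in djc31 djc62, where 14.2%, 13.0% and 15.5% of all loci tested were lower. The medians of the log2 changes of these 17 loci were -0.57, -0.56 and -0.60 in djc31, djc62 and djc31 djc62, and 76.5%, 82.4% and 82.4% were negative. Over all loci tested the medians were -0.009, -0.005 and 0.025, and 50.8%, 50.4% and 47.9% were negative.

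Per locus, 85 of the 133 plastid loci had a normalised read count of at least 10 in at least 3 libraries and were tested with limma on log2(value + 1), a scale that understates changes of low loci. No locus was tested only because wild type was high. The 48 untested loci comprised 26 tRNA, 9 ribosomal protein, 5 other, 4 rRNA, 2 psb and 2 ndh loci, and 12 of them had no reads in any library. A locus counts as changed at an adjusted p under 0.05, Benjamini-Hochberg over all 19975 loci tested.

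In djc62, 25 of the 85 tested plastid loci (29.4%) were lower than in wild type and 0 were higher, where 13.0% of all loci tested were lower and 13.7% higher. The median log2 change of the plastid loci was -0.86, and 97.6% of them were negative. In djc31 djc62, 17 loci (20%) were lower and 0 higher, against 15.5% and 13.8% of all loci, with a median of -0.68 and 95.3% negative. In djc31, 1 locus was lower and 1 higher, fewer than the 14.2% and 13.3% of all loci, with a median of -0.33 that was -0.04 without djc31 replicate 2. Over all loci tested the medians were -0.01, -0.01 and 0.03 in djc31, djc62 and djc31 djc62, and 50.8%, 50.4% and 47.9% were negative. The 3 comparisons share the wild-type libraries, so they are not independent of each other.

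The number of plastid loci past the threshold depended on single libraries. In djc62 it was 13 without wild type replicate 2, 14 without djc62 replicate 1 and 13 without djc62 replicate 3, and 8 loci (YCF3, ATPE, YCF10, PSBB, RPL16, RPL22, NDHG and RPL2.2) were lower in each of the 12 fits that left out 1 library. Of all loci tested, 2599 were lower in djc62 with every library, and 2088, 2329 and 1911 in those fits in the same order. In djc31 djc62 it was 11 without wild type replicate 1, and 9, 10 and 11 without djc31 djc62 replicates 1, 2 and 3. There 7 loci (PSBI, TRNS.1, ATPE, YCF10, PSBB, RPL16 and RPL22) were lower in all 12. Of all loci, 3091 were lower in djc31 djc62 with every library. That count was 2544 without wild type replicate 1, and 2216, 2348 and 2389 without djc31 djc62 replicates 1, 2 and 3. Without djc31 replicate 2, the shallowest library, and djc62 replicate 2, whose plastid sum was the highest of its genotype, 38 loci were lower in djc62 and 27 in djc31 djc62. Of all loci, 2289 and 3132 were then lower. That alternative was chosen after seeing the data.

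How far the libraries overlapped was also counted. In djc62, 41 of the 85 loci had all 3 libraries below all 3 wild-type libraries and 0 had all above, where 20.6% and 20.9% of all loci did. In djc31 djc62 the counts were 47 below and 0 above, where 24.0% and 24.9% of all loci did. In djc31, 10 were below and 4 above, where 18.1% and 17.6% of all loci did.

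**Figure D2:**
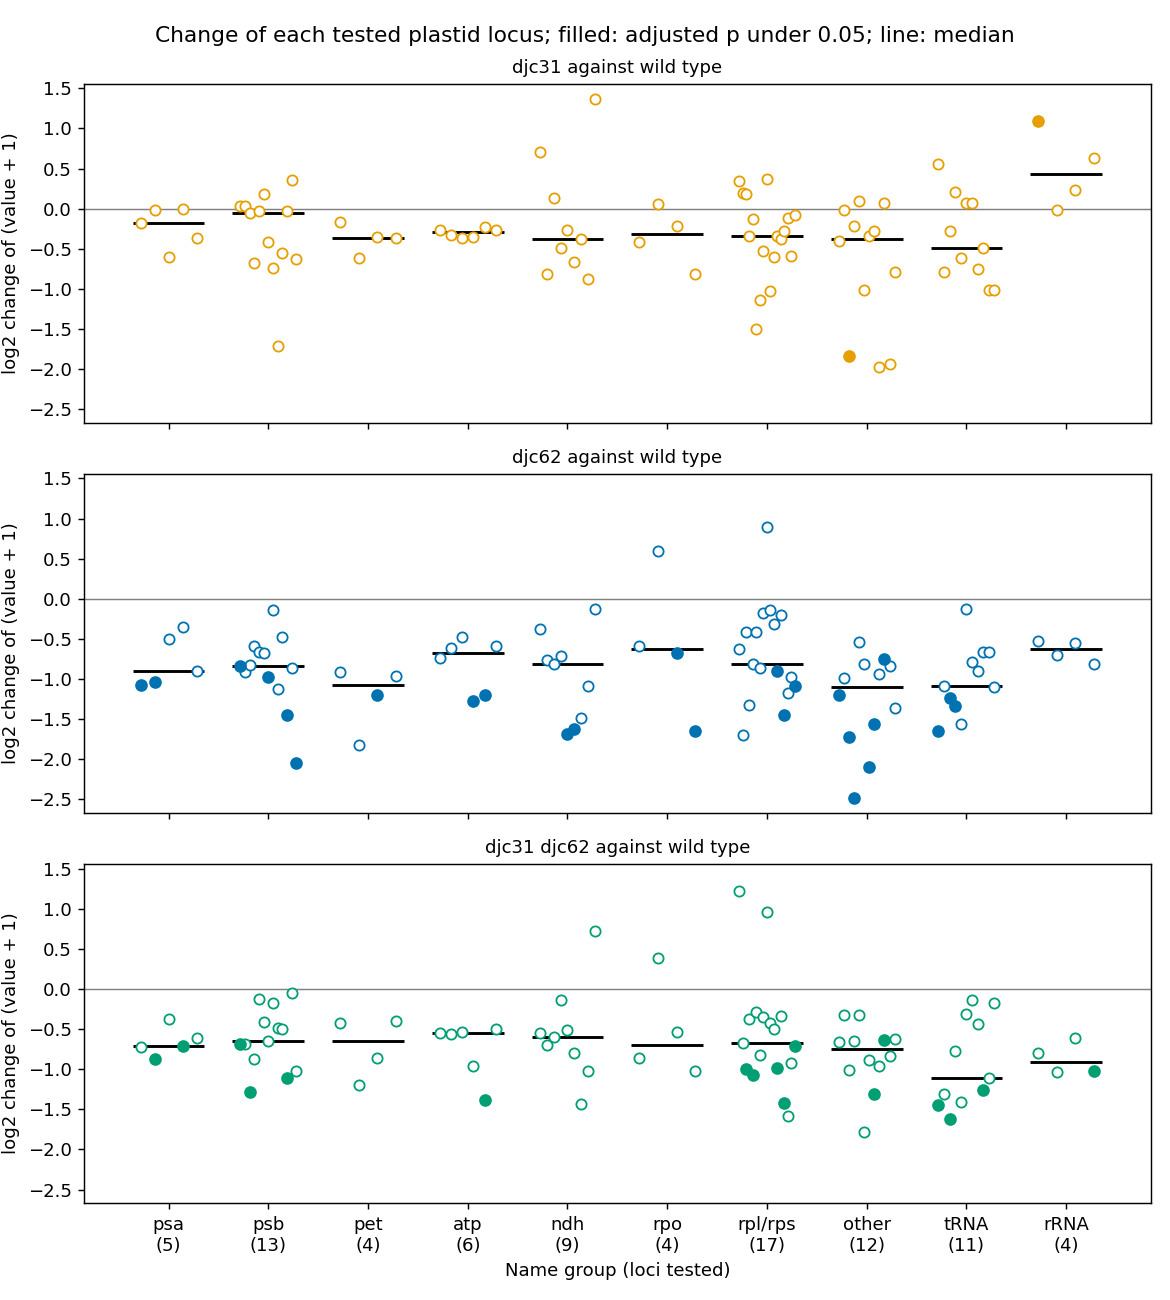
Log2 change of each tested plastid locus on the log2(value + 1) scale (y axis) by name group (x axis, number of loci tested in brackets), for djc31, djc62 and djc31 djc62, each against wild type. Filled circles passed an adjusted p of 0.05 and lines mark group medians, which are below 0 in all groups in djc62 and djc31 djc62 as deposited; scaled to plastid reads, the medians of the psa, psb, pet, atp, ndh, rpl/rps and rpo groups turn positive in djc31 djc62 and those of the atp, rpo and rRNA groups in djc62.

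Scaling each library to its own plastid reads asks which loci changed relative to the other plastid loci. This shifted the median of all loci by 0.14, 0.83 and 0.72 in log2 in djc31, djc62 and djc31 djc62, so that 13147 loci were higher and 398 lower in djc62, against 2727 higher and 2599 lower as deposited. In djc31 djc62 it gave 11758 higher and 382 lower, against 2748 and 3091 as deposited, and in djc31 1835 higher and 1233 lower, against 2655 and 2834. The median of the plastid loci was then -0.19, -0.08 and 0.03 in djc31, djc62 and djc31 djc62. Lower than wild type on this scale were 4 plastid loci in djc62 (YCF3, YCF10, PSBB and PSBH), 2 in djc31 djc62 (ATPE and TRNS.1) and 2 in djc31 (YCF9 and ORF31). Higher were RPOC1 in djc62 and in djc31 djc62, and RRN16S.1 in djc31. In djc62 and djc31 djc62 many more loci passed on this scale than as deposited. An adjusted p under 0.05 was therefore reached there at larger unadjusted p-values, so calls on the 2 scales are not equally strict.

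Precision followed the read number. The 9 loci with a mean above 200 normalised reads had a median SE of 0.22 in log2, and 5 of them were lower in djc62 and 5 in djc31 djc62. Of 25 loci between 50 and 200, with a median SE of 0.31, 11 were lower in djc62 and 8 in djc31 djc62. The 46 loci between 10 and 50 had a median SE of 0.53, with 9 and 4 lower, and of 5 loci under 10 none passed. A missed threshold at a locus with few reads therefore says little. Reads were concentrated in few loci: RBCL, PSBA, RPL32, PB and RPOB together took 43.1% of plastid reads, a share that is not corrected for gene length.

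The name groups held 4 to 17 tested loci each, and their counts are to be read against the 13.0% of all loci lower in djc62 and the 15.5% lower in djc31 djc62. Among loci with psb names, 4 of 13 tested were lower in djc62 and 3 in djc31 djc62, and none in djc31. One of the 4, PSBG, does not encode a photosystem II protein. The group median was -0.05 in djc31, -0.84 in djc62 and -0.64 in djc31 djc62; scaled to plastid reads it was 0.09, -0.01 and 0.07. PSBB (ATCG00680) encodes CP47, a chlorophyll-binding inner antenna protein. It had 597, 440.4 and 418 normalised reads in djc31, 181, 259 and 121 in djc62, 222, 202 and 256 in djc31 djc62, and 432, 570.4 and 469.6 in wild type. All djc62 and djc31 djc62 libraries were below all wild-type libraries, and djc31 overlapped with wild type. The log2 change was -1.45 ± 0.22 in djc62 (SE, limma adjusted p = 0.000113), -1.11 ± 0.22 in djc31 djc62 (adjusted p = 0.00132) and -0.02 ± 0.22 in djc31 (adjusted p = 0.952). Scaled to plastid reads the change was -0.62 in djc62 (limma adjusted p = 0.0352) and -0.38 in djc31 djc62 (adjusted p = 0.201).

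PSBA (ATCG00020), which encodes the D1 reaction centre protein that is replaced after light damage, had 1562, 1089 and 681 normalised reads in djc31, 573, 793 and 417 in djc62, 594, 585 and 746 in djc31 djc62, and 936, 1110.2 and 1047 in wild type. Both djc62 and djc31 djc62 lay below wild type with no overlap, while the djc31 libraries spread on both sides of it. PSBA changed by -0.84 ± 0.24 in log2 in djc62 (SE, limma adjusted p = 0.0156) and -0.69 ± 0.24 in djc31 djc62 (adjusted p = 0.0401), but scaled to plastid reads it was -0.01 and 0.03. The djc62 call ended without wild type replicate 2 (limma adjusted p = 0.052) and without djc62 replicate 3 (adjusted p = 0.0984). The djc31 djc62 call was past the threshold in 7 of the 12 fits that left out 1 library, with adjusted p up to 0.122.

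PSBI (ATCG00080), a small subunit of the photosystem II core, had 66.4, 70.4 and 57.0 normalised reads in djc62, 45.1, 37.2 and 60.2 in djc31 djc62, and 94.5, 103 and 155 in wild type. It was lower in djc31 djc62 by -1.28 ± 0.31 in log2 (SE, limma adjusted p = 0.00508), while in djc62 it missed the threshold (-0.82, adjusted p = 0.0587). PSBH (ATCG00710), a small phosphoprotein of photosystem II, had 5.82, 22.04 and 3.85 in djc62 and 29.5, 37.8 and 44.1 in wild type, with no overlap. Its log2 change in djc62 was -2.04 ± 0.57 (SE, limma adjusted p = 0.0126), and without djc62 replicate 3 it was -1.58 (adjusted p = 0.0716). PSBG (ATCG00430) carries a psb name, but its product is the NDH-K subunit of the NADH dehydrogenase-like complex; it was lower in djc62 by -0.97 ± 0.30 (SE, limma adjusted p = 0.0227) and was past the threshold in 9 of the 12 fits that left out 1 library. PSBC and PSBD, for the antenna protein CP43 and the D2 reaction centre protein, had log2 changes of -0.67 and -0.66 in djc62 and -0.41 and -0.13 in djc31 djc62, none past the threshold.

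Photosystem I loci were lower in 2 of 5 cases in djc62 and in 2 of 5 in djc31 djc62, with group medians of -0.18 in djc31, -0.90 in djc62 and -0.71 in djc31 djc62, or -0.04, -0.12 and 0.01 when scaled to plastid reads. PSAA (ATCG00350) encodes one of the paired reaction centre proteins. It had 317, 236 and 134 normalised reads in djc31, 96.7, 152 and 79.3 in djc62, 83.3, 148 and 136 in djc31 djc62, and 205, 267 and 189 in wild type. Every djc62 and djc31 djc62 library was below every wild-type library. PSAA changed by -1.04 ± 0.31 in log2 in djc62 (SE, limma adjusted p = 0.0174) and -0.87 ± 0.31 in djc31 djc62 (adjusted p = 0.0406), past the threshold in 9 and 8 of the 12 fits that left out 1 library. PSAB (ATCG00340), which encodes its partner, had 249.5, 241 and 197 in djc31, 78.0, 227 and 101 in djc62, 135, 190.5 and 145 in djc31 djc62, and 242, 306 and 231 in wild type. In djc62 replicates 1 and 3 were low and replicate 2, at 227, lay just below the lowest wild-type library, at 231. PSAB was lower in djc62 (-1.08 ± 0.29 SE, limma adjusted p = 0.01, but 0.0574 without djc62 replicate 1 and 0.0505 without djc62 replicate 3), and in djc31 djc62 it missed the threshold at -0.73 (adjusted p = 0.0673). PSAJ, which encodes a small subunit, was lower in djc31 djc62 at -0.71 ± 0.22 (SE, limma adjusted p = 0.023) and missed the threshold in djc62 at -0.36 (adjusted p = 0.261); the test of djc31 djc62 against djc62 also missed it, at -0.36 (adjusted p = 0.285).

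**Figure D3:**
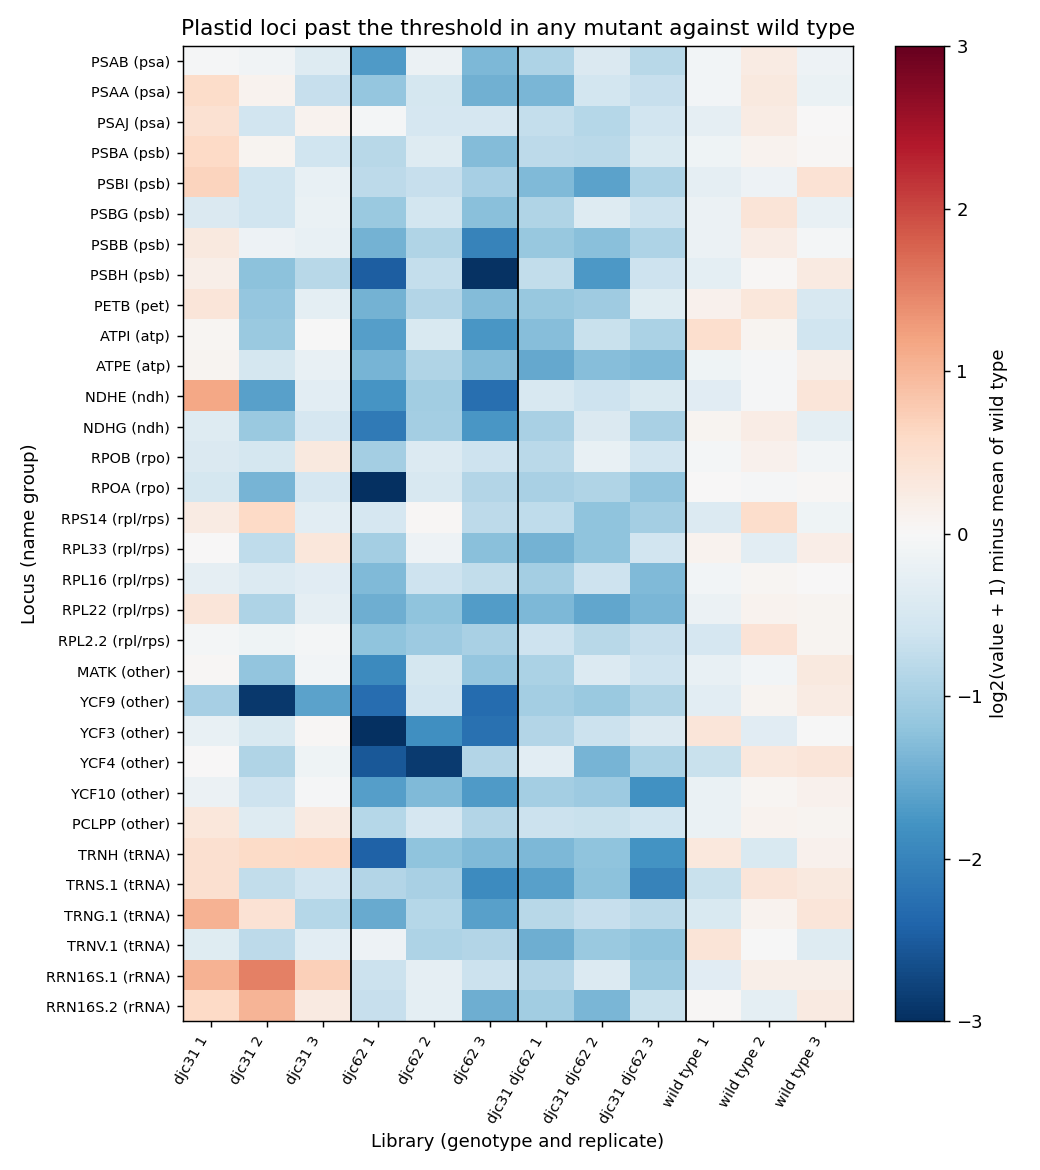
Log2(value + 1) of each library minus the wild-type mean (colour, limited to the range from -3 to 3) for the plastid loci that passed an adjusted p of 0.05 in any mutant against wild type (rows, with name group), by library (columns). The djc62 and djc31 djc62 columns are mostly blue, with djc62 replicate 2 paler than the other djc62 libraries, and RRN16S.1 and RRN16S.2 are red in the 3 djc31 libraries. Scaled to plastid reads, PSBA in djc31 djc62, RPOB in djc62, RPL2.2 in djc31 djc62 and PCLPP in both mutants turn to changes from 0.001 to 0.157.

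Loci with pet names passed once: PETB (ATCG00720), which encodes cytochrome b6, had 33.8, 50.02 and 37.0 normalised reads in djc62, 41.7, 43.2 and 71.1 in djc31 djc62, and 101, 117 and 66.1 in wild type. The djc62 libraries all lay below wild type, and 1 djc31 djc62 library was above the lowest wild-type one. Its log2 change was -1.19 ± 0.36 in djc62 (SE, limma adjusted p = 0.0209; 8 of the 12 fits that left out 1 library) and -0.86 ± 0.36 in djc31 djc62 (adjusted p = 0.0861). PETG, for a small subunit, had the largest point estimate of the 4 pet loci in djc62, -1.82 ± 0.68, and did not pass (limma adjusted p = 0.0568). The group medians were -0.36, -1.08 and -0.64 in djc31, djc62 and djc31 djc62, and -0.22, -0.26 and 0.07 when scaled to plastid reads. ORF31, the petL gene, was sorted by its name into the other loci and did not pass in any mutant as deposited.

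ATP synthase loci held the plastid call with the lowest adjusted p. ATPE (ATCG00470) encodes the epsilon subunit of the catalytic part. It had 544, 354 and 439 normalised reads in djc31, 196, 276 and 209 in djc62, 177, 211 and 204 in djc31 djc62, and 469.6, 499.7 and 579 in wild type. No djc62 or djc31 djc62 library reached the lowest wild-type value, and djc31 overlapped with wild type. ATPE changed by -1.19 ± 0.18 in log2 in djc62 (SE, limma adjusted p = 7.03e-05), -1.38 ± 0.18 in djc31 djc62 (adjusted p = 1.97e-05) and -0.23 ± 0.18 in djc31 (adjusted p = 0.372). Scaled to plastid reads it was -0.36 in djc62 (limma adjusted p = 0.222) and -0.66 in djc31 djc62 (adjusted p = 0.027).

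The atpB gene, listed as PB (ATCG00480), encodes the catalytic beta subunit and lies in the same transcription unit as atpE. It had 605, 563 and 803 normalised reads in djc31, 346, 756 and 533 in djc62, 561, 559 and 529.7 in djc31 djc62, and 949, 783 and 640.0 in wild type. Its djc62 libraries overlapped with wild type, and its djc31 djc62 libraries did not. The log2 change was -0.59 ± 0.22 in djc62 (SE, limma adjusted p = 0.0541) and -0.51 ± 0.22 in djc31 djc62 (adjusted p = 0.0919). Whether ATPE and PB changed by different amounts was not tested. ATPI, for a membrane subunit, was lower in djc62 by -1.28 ± 0.40 (SE, limma adjusted p = 0.0241; 8 of the 12 fits that left out 1 library), while ATPA, ATPF and ATPH, which encode the alpha subunit and further membrane parts, ranged from -0.74 to -0.48 in djc62 and did not pass. The medians of the 6 atp loci were -0.30, -0.68 and -0.55 in djc31, djc62 and djc31 djc62, and -0.16, 0.15 and 0.16 when scaled to plastid reads.

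The ndh genes encode a thylakoid complex that takes part in cyclic electron flow. Of 9 tested under ndh names, 2 were lower in djc62 and none in djc31 or djc31 djc62. PSBG, counted above with the psb names, is not among these 9. NDHG (ATCG01080) had 29.2, 17.2 and 27.0 normalised reads in djc31, 8.15, 18.7 and 10.8 in djc62, 19.1, 28.3 and 19.2 in djc31 djc62, and 40.7, 44.99 and 31.3 in wild type. All libraries of all 3 mutants were below wild type. NDHG changed by -0.67 ± 0.41 in log2 in djc31 (SE, limma adjusted p = 0.249), -1.62 ± 0.41 in djc62 (adjusted p = 0.00694) and -0.79 ± 0.41 in djc31 djc62 (adjusted p = 0.161). NDHE had a log2 change of -1.69 ± 0.60 in djc62 (SE, limma adjusted p = 0.0474), past the threshold in 3 of the 12 fits that left out 1 library and not with edgeR on the recovered reads (adjusted p = 0.0517). NDHF did not pass in any mutant, with log2 changes of 0.13, -0.81 and -0.60. The 2 copies of ndhB could not be tested: NDHB.1 had 2 reads over the 12 libraries and NDHB.2 had 0, where a count of 0 allows up to 3 reads in a library. That limit does not cover reads left out because they match both copies, so the level of ndhB is not known. The median of the 9 loci was -0.38, -0.81 and -0.60 in djc31, djc62 and djc31 djc62, and -0.28, -0.01 and 0.09 when scaled to plastid reads.

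The rpo genes encode the core of the bacterial-type polymerase. RPOB (ATCG00190), for the beta subunit, had 541.5, 509 and 889 normalised reads in djc31, 360.0, 553 and 477 in djc62, 417, 621 and 491 in djc31 djc62, and 697, 802 and 694 in wild type. All djc62 and djc31 djc62 libraries were below wild type. Its log2 change was -0.68 ± 0.20 in djc62 (SE, limma adjusted p = 0.0197), 0.0703 without wild type replicate 2 and 0.096 without djc62 replicate 1, and -0.54 ± 0.20 in djc31 djc62 (adjusted p = 0.0554); scaled to plastid reads the change in djc62 was 0.16. RPOA, for the alpha subunit, had 3.49, 37.3 and 27.7 in djc62 against 52.9, 50.6 and 53.3 in wild type, a log2 change of -1.64 ± 0.58 (SE, limma adjusted p = 0.0447). That call rested on the low value of replicate 1: without it the change was -0.68 (adjusted p = 0.204), and it also failed with edgeR (adjusted p = 0.0949).

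The other 2 subunit genes, RPOC1 and RPOC2, are read in the same unit as rpoB and did not pass. RPOC1 had 35.8, 51.6 and 13.5 normalised reads in djc31, 29.1, 32.2 and 84.7 in djc62, 46.9, 40.2 and 27.6 in djc31 djc62, and 43.7, 18.5 and 27.8 in wild type, and its libraries overlapped in every comparison. Its log2 change was 0.59 ± 0.50 in djc62 (SE, limma adjusted p = 0.417), one of the 2 positive point estimates among the 85 loci there. Genes read largely by the phage-type polymerase (accD, rpoB, rpoC1, rpoC2 and both ycf2 copies) gave 4 tested loci of 6, of which rpoB in djc62 was the single call. ACCD, which encodes a subunit of the plastid acetyl-CoA carboxylase, had log2 changes of -1.01, -0.81 and -1.79 in djc31, djc62 and djc31 djc62, the last just over the threshold (limma adjusted p = 0.05004). The YCF2 copies had 5 and 2 reads in all.

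Ribosomal protein loci were lower in 3 of 17 cases in djc62, which is 17.6% and near the 13.0% of all loci, and in 5 of 17 in djc31 djc62, which is 29.4% where 15.5% of all loci were lower. RPL22 (ATCG00810) had 209.7, 85.9 and 135 normalised reads in djc31, 58.2, 70.4 and 50.8 in djc62, 63.3, 55.1 and 62.8 in djc31 djc62, and 144, 176 and 172 in wild type. The djc62 and djc31 djc62 libraries were all below wild type and covered a narrow range. RPL22 changed by -1.45 ± 0.27 in log2 in djc62 (SE, limma adjusted p = 0.000721), -1.42 ± 0.27 in djc31 djc62 (adjusted p = 0.000866) and -0.28 ± 0.27 in djc31 (adjusted p = 0.489). RPL16 (ATCG00790), a neighbour in the same cluster, had 204, 185 and 195 in djc31, 97.9, 161 and 147 in djc62, 121, 161 and 97.9 in djc31 djc62, and 233, 259 and 250.4 in wild type. All 9 mutant libraries lay below wild type, and the log2 change was -0.34 in djc31 (limma adjusted p = 0.254), -0.90 ± 0.21 in djc62 (SE, adjusted p = 0.00451) and -0.98 ± 0.21 in djc31 djc62 (adjusted p = 0.0022).

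RPL2.2 (ATCG01310) is one of a pair of rpl2 copies in the repeated part of the plastid genome. It had 119, 114 and 118 normalised reads in djc31, 53.6, 57.7 and 63.1 in djc62, 79.8, 69.2 and 77.0 in djc31 djc62, and 87.4, 165 and 132 in wild type, a log2 change of -1.08 ± 0.24 in djc62 (SE, limma adjusted p = 0.00236) and -0.72 ± 0.24 in djc31 djc62 (adjusted p = 0.0302; 7 of the 12 fits that left out 1 library). The other copy, RPL2.1, had 59 reads over the 12 libraries and was not tested. The sources used here do not say how reads matching both copies were counted, so the level of either copy is uncertain. RPL33 and RPS14 were lower in djc31 djc62 (log2 change -1.07 and -0.999, limma adjusted p = 0.0443 and 0.023), with -0.81 and -0.42 in djc62, where neither passed. The RPL33 call held in 8 of the 12 fits that left out 1 library and missed the threshold with edgeR (adjusted p = 0.0519), and the RPS14 call held in 9. RPS12, which is joined from separate transcripts by trans-splicing, is listed as 3 loci; RPS12A changed by 0.35, -0.62 and 1.22 with SE 1.01, and RPS12B and RPS12C had 6 and 8 reads in all. The medians of the 17 loci were -0.34, -0.81 and -0.68 in djc31, djc62 and djc31 djc62, and -0.19, -0.06 and 0.001 when scaled to plastid reads.

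Genes of shared transcription units did not all pass together. In the unit of psbB, psbT, psbH, petB and petD, 3 of 5 loci were lower in djc62 and 1 in djc31 djc62, with log2 changes from -2.04 to -0.86 in djc62 and from -1.11 to -0.05 in djc31 djc62. In the unit of ndhH, ndhA, ndhI, ndhG, ndhE, psaC and ndhD, 2 of 7 were lower in djc62 and none in djc31 djc62. In the rpoB, rpoC1 and rpoC2 unit the djc62 changes ran from -0.68 to 0.59. Neither gene of the psbD and psbC unit passed in any mutant. Differences between genes of a unit were not tested, and the loci of a unit differ in read number and so in precision.

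**Figure D4:**
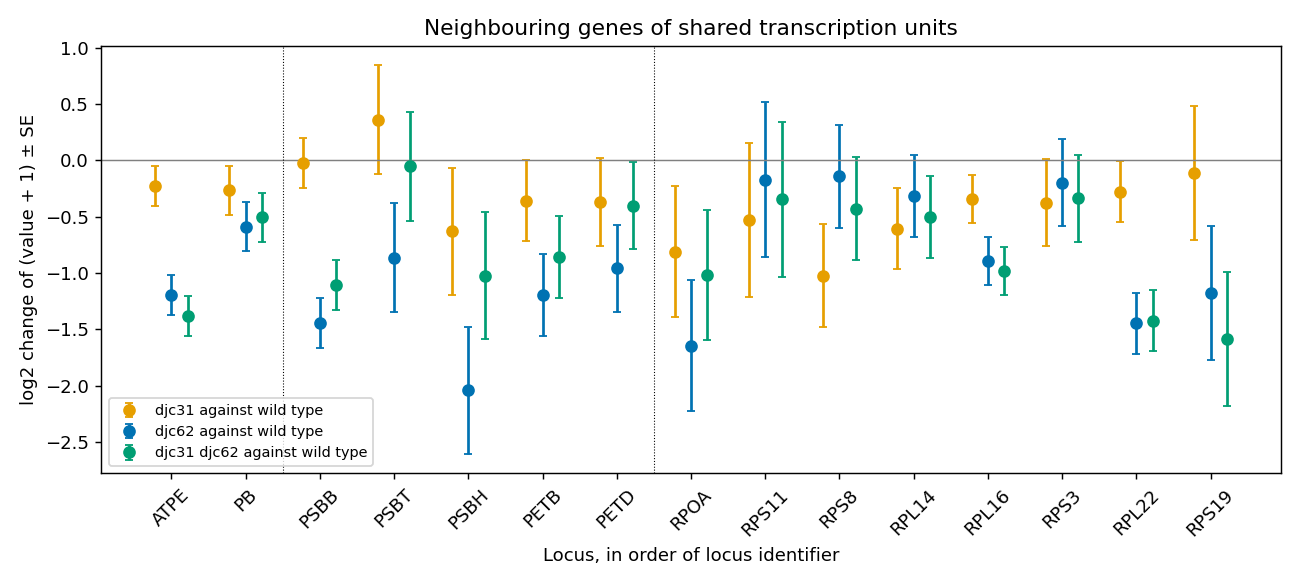
Log2 change ± SE on the log2(value + 1) scale (y axis) of neighbouring plastid loci (x axis, in order of locus identifier, dotted lines between units) in djc31, djc62 and djc31 djc62, each against wild type. ATPE and PSBB lie below -1 in djc62 and djc31 djc62, PB at -0.59 and -0.51, and in the ribosomal cluster RPL22 and RPL16 passed the test while RPL14 and RPS3 did not, with -0.31 and -0.20 in djc62.

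Of the 12 other loci tested, 6 were lower in djc62, 2 in djc31 djc62 and 1 in djc31. YCF10 (ATCG00530), also called cemA, encodes an inner envelope protein. It had 319.9, 234 and 352 normalised reads in djc31, 114, 144 and 110.1 in djc62, 177, 170.4 and 101 in djc31 djc62, and 314, 379 and 398 in wild type. The djc62 and djc31 djc62 libraries were all below wild type, and djc31 overlapped with it. YCF10 changed by -1.56 ± 0.22 in log2 in djc62 (SE, limma adjusted p = 4.58e-05) and -1.31 ± 0.22 in djc31 djc62 (adjusted p = 0.000276), and scaled to plastid reads it was -0.73 (adjusted p = 0.0185) and -0.59 (adjusted p = 0.0625).

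YCF3 (ATCG00360) and YCF4 encode factors that assemble photosystem I. YCF3 had 27.9, 23.6 and 33.8 normalised reads in djc31, 2.33, 8.48 and 6.16 in djc62, 17.4, 20.8 and 24.3 in djc31 djc62, and 42.7, 25.7 and 32.5 in wild type. Its djc62 libraries lay below every other library of the study. The log2 change in djc62 was -2.48 ± 0.46 (SE, limma adjusted p = 0.000586), and -1.74 (adjusted p = 0.00571) when scaled to plastid reads. In djc31 djc62 it was -0.65 ± 0.46 (SE, limma adjusted p = 0.31). YCF4 had 3.49, 2.54 and 13.1 in djc62 and 15.2, 31.3 and 32.5 in wild type, a log2 change of -2.10 ± 0.58 (SE, limma adjusted p = 0.0126; 9 of the 12 fits that left out 1 library).

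PCLPP (ATCG00670), for the plastid-encoded catalytic subunit of the Clp protease, had 269, 161 and 254 normalised reads in djc31, 115, 149 and 114 in djc62, 135, 132 and 139.7 in djc31 djc62, and 184, 228 and 224 in wild type. Both djc62 and djc31 djc62 were below wild type without overlap. The log2 change was -0.75 ± 0.20 in djc62 (SE, limma adjusted p = 0.0114) and -0.63 ± 0.20 in djc31 djc62 (adjusted p = 0.0273), and 0.08 and 0.09 when scaled to plastid reads. The call held in 11 of the 12 fits that left out 1 library in djc62 and in 7 in djc31 djc62. MATK, for the maturase that acts on plastid introns, was lower in djc62 by -1.20 ± 0.36 (SE, limma adjusted p = 0.0199), with adjusted p = 0.0705 without wild type replicate 3 and 0.101 without djc62 replicate 1.

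RBCL (ATCG00490), for the large subunit of the CO2-fixing enzyme Rubisco, had the largest share of plastid reads. It had 1408, 1029 and 772 normalised reads in djc31, 669, 937 and 474 in djc62, 692, 899.6 and 744 in djc31 djc62, and 976, 933 and 1002 in wild type. All 3 djc31 djc62 libraries were below wild type, and djc62 replicate 2 fell within its range. RBCL changed by 0.10 ± 0.21 in log2 in djc31 (SE, limma adjusted p = 0.774), -0.54 ± 0.21 in djc62 (adjusted p = 0.0726) and -0.33 ± 0.21 in djc31 djc62 (adjusted p = 0.276). Without djc31 replicate 2 and djc62 replicate 2 the change in djc62 was -0.78 (limma adjusted p = 0.0173).

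YCF1.2 is one of 2 ycf1 loci, a gene whose product has been described as part of the envelope import machinery, and the other, YCF1.1, had 10 reads over the 12 libraries. YCF1.2 had 161, 21.5 and 146 normalised reads in djc31, 48.9, 76.3 and 41.6 in djc62, 79.8, 115 and 80.3 in djc31 djc62, and 142, 128 and 149.6 in wild type. Its log2 change was -0.79 in djc31, -1.36 in djc62 and -0.62 in djc31 djc62, none past the threshold (limma adjusted p = 0.278, 0.0593 and 0.395). In djc62 it was past the threshold with edgeR (-1.32, adjusted p = 0.023), with DESeq2 (-1.33, adjusted p = 0.00857), with a pseudocount of 10 (limma adjusted p = 0.0438) and without djc31 replicate 2 by limma. YCF9 (ATCG00300), also called psbZ, encodes a small photosystem II protein and was the single locus lower in djc31. It had 18.6, 4.30 and 11.8 normalised reads in djc31, 6.99, 25.4 and 6.93 in djc62, 18.2, 17.1 and 20.1 in djc31 djc62, and 30.5, 40.2 and 45.2 in wild type. All 9 mutant libraries were below wild type. The log2 change was -1.83 ± 0.56 in djc31 (SE, limma adjusted p = 0.0203), -1.72 ± 0.56 in djc62 (adjusted p = 0.0291) and -1.01 ± 0.56 in djc31 djc62 (adjusted p = 0.19). The djc31 call ended without djc31 replicate 2, with -1.30 (limma adjusted p = 0.0885), and without wild type replicates 2 (adjusted p = 0.0586) or 3 (0.0643).

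Of 4 rRNA loci tested, 1 was higher in djc31, none passed in djc62 and 1 was lower in djc31 djc62. The summed plastid rRNA values were 410, 395 and 204 in djc31, 156, 182 and 116 in djc62, 114, 124 and 154 in djc31 djc62, and 181, 298 and 242 in wild type, so that djc31 replicate 3 lay within the wild-type range and the djc31 djc62 libraries lay below it. RRN16S.1 (ATCG00920), a 16S rRNA copy, had 81.0, 114 and 64.2 normalised reads in djc31, 24.5, 32.2 and 24.6 in djc62, 20.8, 29.0 and 17.6 in djc31 djc62, and 30.5, 44.2 and 44.1 in wild type. All djc31 libraries lay above all wild-type libraries, and replicate 2 was the highest. It was higher in djc31 by 1.09 ± 0.33 (SE, limma adjusted p = 0.0204), but without djc31 replicate 2, the library rich in nuclear rRNA, the change was 0.87 (adjusted p = 0.0859), and without wild type replicate 1 it was 0.91 (adjusted p = 0.0928). In djc62 and djc31 djc62 its change was -0.52 (limma adjusted p = 0.268) and -0.80 (adjusted p = 0.0793). RRN16S.2, the other copy, had a log2 change of 0.63 (limma adjusted p = 0.23) in djc31 and -1.02 ± 0.37 (SE, adjusted p = 0.0459) in djc31 djc62. That call was past the threshold in 6 of the 12 fits that left out 1 library. The 23S copies RRN23S.1 and RRN23S.2 did not pass in djc31 or djc62, with log2 changes of -0.01 and 0.23 in djc31 and -0.70 and -0.55 in djc62. Reads of near-identical copies cannot be told apart, so these levels are uncertain. Of the 38 loci in the repeated part of the plastid genome, 6 were tested and 12 had no reads in any library. Of the other 95 loci, 79 were tested and 0 had no reads. Whether reads matching both copies were left out of the counts was not tested. Mitochondrial rRNA summed to 1726, 2718 and 1133 in djc31 and 1484, 1670.0 and 1401 in wild type, also highest in djc31 replicate 2.

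Among tRNA loci, 11 of 37 were tested, and 3 were lower in djc62 and 3 in djc31 djc62. TRNS.1 (ATCG00090), a serine tRNA locus, had 127, 53.7 and 60.01 normalised reads in djc31, 48.9, 45.8 and 23.9 in djc62, 28.6, 37.9 and 21.8 in djc31 djc62, and 56.9, 116 and 111 in wild type. The djc62 and djc31 djc62 libraries were below wild type without overlap. Its log2 change was -1.24 ± 0.39 in djc62 (SE, limma adjusted p = 0.0261; 9 of the 12 fits that left out 1 library) and -1.62 ± 0.39 in djc31 djc62 (adjusted p = 0.00501). TRNV.1, a valine tRNA locus, was lower in djc31 djc62 (-1.26 ± 0.38 SE, limma adjusted p = 0.0182, but 0.085 without wild type replicate 1 and 0.0688 without djc31 djc62 replicate 1). Short mature tRNAs are poorly recovered by most RNA-seq libraries, and overlap of these loci with neighbouring transcripts was not examined.

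Compared with djc31, the double mutant had 15 of 85 plastid loci lower, which is 17.6% and near the 16.0% of all loci. It had 0 higher, where 15.3% of all loci were higher. The median log2 change of the plastid loci was -0.38, or -0.64 without djc31 replicate 2. All double-mutant libraries were below all djc31 libraries at 20 of the 85 plastid loci, a share near the 22.2% of all loci. They were above them at 1, where 23.2% of all loci were above. ATPE changed by -1.16 ± 0.18 (SE, limma adjusted p = 0.000156), PSBB by -1.08 ± 0.22 (adjusted p = 0.00173) and RRN16S.1 by -1.89 ± 0.33 (adjusted p = 0.000499). Without djc31 replicate 1, which had the highest plastid sum, 9 loci were lower and 1 was higher, where 2639 and 2658 of all loci were. In djc62 against djc31, 14 were lower and 0 higher, where 5.85% and 7.91% of all loci passed, with PSBB at -1.42 ± 0.22 (SE, limma adjusted p = 0.000809), YCF10 at -1.28 ± 0.22 (adjusted p = 0.00152) and YCF3 at -2.26 ± 0.46 (adjusted p = 0.00416). Here 21 plastid loci had all djc62 libraries below all djc31 libraries and 1 had all above, where 13.8% and 14.5% of all loci did. Without djc62 replicate 3, 8 were lower, where 391 of all loci were. Scaled to plastid reads, 5 loci were higher and 2 lower in djc31 djc62 against djc31, where 8995 and 282 of all 19975 loci tested were. In djc62 against djc31, 8 were higher and 3 lower on that scale, where 11080 and 56 of all loci were.

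Between djc31 djc62 and djc62, 1 locus was higher and 0 were lower, where 9.38% and 10.4% of all loci passed. YCF3 was 17.4, 20.8 and 24.3 in djc31 djc62 and 2.33, 8.48 and 6.16 in djc62, with no overlap and a log2 change of 1.83 ± 0.46 (SE, limma adjusted p = 0.00916). The median over the 85 loci was 0.14, but -0.01 without djc62 replicate 1 and 0.38 without djc62 replicate 2. At 10 plastid loci all djc31 djc62 libraries were above all djc62 libraries and at 2 all were below, where 21.6% and 23.3% of all loci did so. The count of higher loci was 2 without djc31 replicate 2, 4 without djc62 replicate 2 and 2 without djc62 replicate 3, where 2065, 1460 and 1376 of all loci were higher.

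The non-additive contrast subtracts the djc31 change and the djc62 change from the djc31 djc62 change, all on the log2 scale and against wild type. It is the same as asking whether the djc31 mutation changed a locus by a different amount in plants with and without djc62. In it 2 plastid loci were positive and 1 was negative, where 15.8% and 15.4% of all loci passed. They were YCF9 at 2.54 ± 0.78, YCF3 at 2.05 ± 0.65 and RRN16S.1 at -1.36 ± 0.47 (SE, limma adjusted p = 0.0206, 0.0229 and 0.0342). The median over the 85 loci was 0.46, or 0.25 without djc31 replicate 2. None of the 3 passed in all 12 fits that left out 1 library.

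Nuclear genes that serve plastid transcription and RNA processing were read from lists of fixed membership. Of 6 sigma factors, 3 were lower in djc31, 2 in djc62 and 4 in djc31 djc62, and none was higher, where 14.2%, 13.0% and 15.5% of all loci were lower. SIG5, which responds to light and stress and acts at the psbD promoter, averaged 762 ± 112 in djc31, 759 ± 124 in djc62, 1053 ± 157 in djc31 djc62 and 1846 ± 234 in wild type (SD, n = 3), with log2 changes of -1.28, -1.29 and -0.81 (limma adjusted p = 6.06e-06, 6.8e-06 and 0.000698). SIG1 fell by less, with -0.47, -0.39 and -0.48. The median log2 change of the 6 was -0.30, -0.25 and -0.40 in djc31, djc62 and djc31 djc62. The 3 phage-type polymerases did not pass in any mutant, RPOTm and RPOTmp having log2 changes of -0.37 and -0.36 in djc31, 0.29 and -0.09 in djc62, and -0.28 and -0.32 in djc31 djc62.

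Of 13 proteins associated with the bacterial-type polymerase, 1 was lower in djc31, 1 in djc62 and 10 in djc31 djc62. Of all loci 14.2%, 13.0% and 15.5% were lower, and the medians of the 13 were -0.09, -0.12 and -0.44. PRIN2, a small protein of that complex, changed by -0.86 ± 0.14 in djc31 djc62 (SE, limma adjusted p = 0.000178) and by -0.19 and -0.30 in djc31 and djc62, which did not pass. FSD3, an iron superoxide dismutase of the complex, was lower in all 3, by -0.35, -0.39 and -0.66. Of 21 loci for plastid RNA processing and stability, a list with 1 further locus not analysed here, 1 was higher and 4 lower in djc31, 2 higher and 4 lower in djc62, and 0 higher and 10 lower in djc31 djc62, with medians of -0.06, -0.08 and -0.29. The 4 lower loci are 19.0% of the list in djc31 and in djc62, near the 14.2% and 13.0% of all loci, and the 10 in djc31 djc62 are 47.6%, where 15.5% of all loci were lower. CP29A, an RNA-binding protein, was higher in djc31 (0.89 ± 0.11 SE, limma adjusted p = 8.95e-06) and djc62 (0.55 ± 0.11, adjusted p = 0.00109) and did not pass in djc31 djc62 (-0.04). CSP41A, an RNA-binding protein of the stroma, was lower in djc62 (-0.43 ± 0.11 SE, limma adjusted p = 0.00726) and djc31 djc62 (-0.81 ± 0.11, adjusted p = 3.78e-05). Of 4 leaf markers tested, 2 were lower in djc31 djc62, where 15.5% of all loci were lower. They were RBCS1A at -0.79 ± 0.23 (SE, limma adjusted p = 0.0173) and SBPASE at -0.60 ± 0.12 (adjusted p = 0.000909). In djc62 they did not pass, at -0.35 and -0.07. Only 6 of the 17 root markers were tested. Of these, 2 were higher and 1 lower in djc31, 2 higher and 0 lower in djc62, and 3 higher and 0 lower in djc31 djc62. Of all loci 13.3%, 13.7% and 13.8% were higher in these mutants. The log2 change was negative at 3, 4 and 1 of the 6 root markers. PYK10, a glucosidase abundant in roots, was higher in all 3 mutants, by 0.42, 0.77 and 1.596. SCR, a transcription factor of the root endodermis, was lower in djc31 at -0.77 ± 0.13 (SE, limma adjusted p = 0.00026) and did not pass in djc62 (-0.005) or djc31 djc62 (-0.16).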

How the data were processed

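The table held one value per locus for 12 libraries. Per the submitters' processing notes, Trimmomatic, FastQC and featureCounts were used with TAIR10; versions, aligner, strandedness and the handling of reads that match several places were not stated. The deposited values are a signal in which, from the values themselves, the authors had divided whole reads by 1 factor per library: 100% of the values became whole, within 0.01, when multiplied back. Every number here starts from those values, which leave out unassigned reads. Reads of repeated loci, of overlapping loci and of opposite strands cannot be told apart in them.

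The values are not raw counts, so the main test was limma 3.58.1 in R 4.3.3 on log2(value + 1), its prior variance following a trend over mean level. It covered the 19975 of 36917 loci that reached 10 in 3 or more of the 12 libraries (16942 did not), with 1 mean per genotype, 8 residual degrees of freedom and Benjamini-Hochberg adjustment at 0.05. Unless another tool is named, adjusted p-values are from limma. On the recovered reads, edgeR 4.0.16 (quasi-likelihood) called 2718 loci higher and 2705 lower in djc31, 2844 and 2654 in djc62, and 2864 and 3142 in djc31 djc62, each against wild type; DESeq2 1.42.0 was also run. The tests were checked on simulated data in which only loci with a mean of at least 50 normalised reads were changed. That check does not cover loci with fewer reads, which include many of the tested plastid loci. Other alternatives were TMM scaling, library factors from nuclear loci, scaling to plastid reads, a pseudocount of 10, no filter, a replicate block, leaving out each library, and leaving out 2 libraries at once. Intervals, and the limit of 3 reads that a count of 0 allows, cover counting error only. No pair of replicates was one library deposited repeatedly: their chi-square per locus was 6.43 to 31.4.

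Loci named are a fixed set of well-known plastid genes, the 2 with the lowest adjusted p per name group and per further list; other names were added after their values were seen. Members and lists were chosen with earlier results of these data known. Figures were drawn with matplotlib 3.10.9 in Python 3.11.15. No sequence or genome coordinate of these loci was used.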

Additional observations from a re-analysis of the deposited data

Results flagged for a closer look

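At 3 plastid loci, the limma test for a different djc31 change with and without djc62 (the non-additive contrast) passed the threshold. Of the 85 tested plastid loci 2.35% were positive and 1.18% negative, where 15.8% and 15.4% of all loci were. None of the 3 passed in all 12 fits that left out 1 library. For YCF9 the difference was 2.541 ± 0.785 on the log2 scale (SE, limma adjusted p = 0.0206): djc31 changed by -1.83, djc62 by -1.72 and djc31 djc62 by -1.01 against wild type. Its adjusted p was 0.0516 with edgeR, 0.0518 without djc62 replicate 1 and 0.0526 without djc62 replicate 3 (limma for the last pair).

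YCF3 gave 2.048 ± 0.645 (SE, limma adjusted p = 0.0229), and its changes against wild type were -0.22 in djc31, -2.48 in djc62 and -0.65 in djc31 djc62. With edgeR the adjusted p was 0.0323. By limma it was 0.0686 without wild type replicate 1, 0.0518 without djc62 replicate 1, and 0.0509 and 0.0555 without djc31 djc62 replicates 2 and 3.

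For RRN16S.1 the value was -1.365 ± 0.467 (SE, limma adjusted p = 0.0342), from 1.09 in djc31, -0.52 in djc62 and -0.80 in djc31 djc62 against wild type. The adjusted p was 0.0434 with edgeR. Leaving out 1 library kept the contrast between -1.147 and -1.557. It missed the threshold without djc31 replicate 2 (-1.147, limma adjusted p = 0.0777), wild type replicate 1 (-1.192, adjusted p = 0.0882), djc62 replicate 2 (-1.238, adjusted p = 0.0783) and djc31 djc62 replicates 1 (-1.327, adjusted p = 0.0689) and 3 (-1.21, adjusted p = 0.0784). Scaled to plastid reads it was -1.606 (limma adjusted p = 0.0572).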

How the results depend on the processing

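The direction of the plastid change in djc62 and djc31 djc62 held with TMM scaling (25 and 16 loci lower), edgeR (26 and 18) and DESeq2 (28 and 25), while scaling to plastid reads, which removes a shift common to plastid loci by its construction, left 4 and 2 lower and 1 and 1 higher. That scaling also gave 2 lower in djc31, 5 higher and 2 lower in djc31 djc62 against djc31, 8 higher and 3 lower in djc62 against djc31, and 0 negative in the non-additive contrast. Of all loci it gave 1233 lower, 8995 higher and 282 lower, 11080 higher and 56 lower, and 2300 negative in the same order. It turned the log2 changes of PSBA (0.034), RPL2.2 (0.001) and PCLPP (0.088) in djc31 djc62 and of RPOB (0.157) and PCLPP (0.081) in djc62 positive. Without the filter, with more loci to adjust over, 0 were higher in djc31, 10 lower in djc31 djc62 and 0 negative in the non-additive contrast. With edgeR, 1 was positive in that contrast. With djc31 replicate 2 and djc62 replicate 2 left out (chosen after seeing the data), 0 were higher in djc31, 38 lower in djc62, 27 lower in djc31 djc62, 5 higher in djc31 djc62 against djc62, and 4 positive and 0 negative in the non-additive contrast.

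Leaving out 1 library at a time gave 0 to 1 loci higher and 0 to 5 lower in djc31, 13 to 33 lower in djc62, 9 to 24 lower in djc31 djc62, 0 to 1 higher and 9 to 17 lower in djc31 djc62 against djc31, 1 to 4 higher in djc31 djc62 against djc62, 8 to 19 lower in djc62 against djc31, and 0 to 6 positive and 0 to 1 negative in the non-additive contrast. Of all loci, 1911 to 2951 were lower in djc62 and 2216 to 3465 in djc31 djc62 in these fits. In djc31 the higher count was 0 without wild type replicate 1 or djc31 replicate 2, and the lower count was 0 without wild type replicates 2 or 3 or djc31 replicate 2, 5 without djc31 replicate 1 and 3 without djc31 replicate 3. The positive count in the non-additive contrast was 6 without djc31 replicate 1, 5 without djc62 replicate 2, 0 without djc62 replicate 1, and 1 without wild type replicate 1, djc62 replicate 3 or djc31 djc62 replicate 2. YCF1.2 in djc31 djc62 against djc31 changed by 0.17, and by -0.754 without djc31 replicate 2, its lowest djc31 library, whether or not djc62 replicate 2 was also left out, with a range of -0.754 to 0.669 over the libraries. Plastid loci took 0.033% to 0.0393% of reads in djc31, 0.0217% to 0.0281% in djc62, 0.0302% to 0.0315% in djc31 djc62 and 0.0404% to 0.044% in wild type when 1 library was left out. Except where stated, the cause of these changes was not tested. Libraries with the same replicate number correlated at -0.151 to 0.106 in their deviations from the genotype means, and wild type replicate 3 at 0.164 with djc31 replicate 1. These correlations showed no pairing by number. They cannot exclude a small shared effect, because deviations from means of 3 libraries are tied to each other. A fit with the replicate block gave 25 loci lower in djc62, 16 in djc31 djc62, 15 in djc31 djc62 against djc31 and 15 in djc62 against djc31.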
